A study of Sus scrofa with 14 samples.

Results

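The macrophage nuclei of the pig mammary gland were described across late gestation, lactation and involution. Single-nucleus RNA sequencing had been applied to frozen mammary gland from 10 multiparous sows in their second breeding cycle, with 2 sows at each of 5 stages: day 90 of gestation (G90), day 0 (L0) and day 20 (L20) of lactation, and 2 days (PI2) and 7 days (PI7) after the onset of natural involution. No treatment or genetic change separated the groups, which differed in stage alone as far as the labels and methods say. Each gland gave 1 library, cut from the same gland region of the right side, so the sow was the replicate. A nucleus was taken as a macrophage nucleus if it had at least 300 detected genes, carried transcripts (unique molecular identifiers, UMIs) of at least 2 of the 5 marker genes CD163, VSIG4, CSF1R, GP91-PHOX and MMP9, and carried 0 UMIs over EPCAM, COL1A1, PTPRB, RGS5, CD3E and ADIPOQ, which mark epithelial cells, fibroblasts, endothelial cells, pericytes, T cells and adipocytes. By this rule 4122 of 127926 nuclei were macrophage nuclei. The members were thus selected on the measured counts of these 11 genes, whose values are given below as a description and were not tested.

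Macrophages are phagocytes that arise from embryonic precursors or from blood monocytes, and the cytokine CSF1 keeps them alive through its receptor CSF1R. In the mammary gland they lie along the ducts and alveoli and in the fat pad. There they take up dying epithelial cells and milk residue, break down matrix and present antigen to T cells, and they are best known in this tissue for the clearing of the epithelium after weaning.

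Among the rule's markers, CD163, the receptor that takes up haemoglobin bound to haptoglobin, was seen in 78.3% of the macrophage nuclei. CSF1R was seen in 65.3%, VSIG4, a complement receptor of tissue macrophages, in 53.9%, and GP91-PHOX, the membrane subunit of the NADPH oxidase (CYBB in other species), in 46.0%. MMP9, a gelatin-degrading protease, was seen in 14.3%, or 589 nuclei. In CPM, the UMIs of a gene scaled to 1000000 UMIs of the macrophage nuclei of a gland, CD163 was 2045 and 1475 for G90, 2141 and 1245 for L0, 1415 and 3453 for L20, 1737 and 1062 for PI2 and 1169.5 and 1552 for PI7. MMP9 had the widest spread, with 8.16 and 4.88 for G90, 26.3 and 147 for L0, 372 and 38.3 for L20, 165 and 525 for PI2 and 1139.5 and 141 for PI7. VSIG4 ranged over the glands from 215 to 747 CPM, CSF1R from 447 to 990.2 and GP91-PHOX from 205 to 529.

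Nuclei just inside and just outside the rule differed in degree. MRC1, the mannose receptor, was not part of the rule. It was seen in 4.35% of the nuclei with none of the 5 markers and no exclusion gene, in 12.3% of the 7224 with 1 marker, in 32.4% of the 2311 with 2 and in 49.9% of the 1274 with 3. The median UMIs of these classes were 1556, 1420.5, 1739 and 2416.5, so depth rose with the number of markers from 1 to 3 but not from 0 to 1. Of the nuclei with at least 2 markers, 2303 were set aside because they held UMIs of an exclusion gene (5.26 to 42.4% of such nuclei per gland), and MRC1 was seen in 31.5% of the 683 of these with 2 markers and 1 exclusion UMI. The remaining nuclei of a gland, called "all other nuclei" below, therefore still held nuclei with macrophage transcripts. No doublet caller was run, and the exclusion genes were the guard against doublets.

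The label was checked against 21 macrophage genes that the rule did not use. Their summed level was 3204 to 7698 CPM in the macrophage nuclei of the 10 glands and 276 to 1545 CPM in all other nuclei, and it was higher in the macrophage nuclei of 10 of 10 glands. Epithelial keratins and regulators summed to 148 to 1384 CPM against 771 to 4342, and fibroblast and endothelial lists were likewise lower in the macrophage nuclei of every gland. The rule set aside nuclei with a UMI of EPCAM, COL1A1, PTPRB, RGS5 or CD3E, while all other nuclei kept them. Lower epithelial, fibroblast, endothelial, mural and T cell lists were thus favoured by the rule and are no separate check of the label. Milk protein transcripts, 4 genes, reached 12.8 to 2972 CPM in the macrophage nuclei and 120 to 11322 CPM in all other nuclei. CSN1S1, which encodes alpha-S1-casein, was present in macrophage nuclei at 89.8 and 933 for G90, 1235 and 991 for L0, 62.9 and 7.59 for L20, 55 and 11.06 for PI2 and 8.74 and 22 for PI7 CPM, and it was highest at L0 in both classes of nuclei. Neutrophils also use MMP9 and GP91-PHOX. Their list of 3 genes summed to 0 to 97.6 CPM in the macrophage nuclei against 0.652 to 21.7 CPM in all other nuclei, and it was higher in the macrophage nuclei of 9 of 10 glands. CSF3R, the G-CSF receptor of that list, was at 0 to 71.9 CPM in the macrophage nuclei against 0.606 to 13.3 in all other nuclei, whereas S100A8, a calcium-binding protein abundant in neutrophils and monocytes, was at 0 in 6 of the 10 glands and at most 43.2 CPM, at L20 in sow 1. The dendritic cell list of 4 genes was at 13.1 to 155 CPM and was higher than in all other nuclei in 10 of 10 glands, that of T and NK cells at 13.1 to 117 CPM and higher in 1, and that of B and plasma cells at 39.1 to 420 CPM and higher in 2. Adipocyte genes were higher in the macrophage nuclei of 7 glands, mural cell genes in 1 and mast cell genes in 0 of 10. The part of these other transcripts in the results below was not tested.

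**Figure D1:**
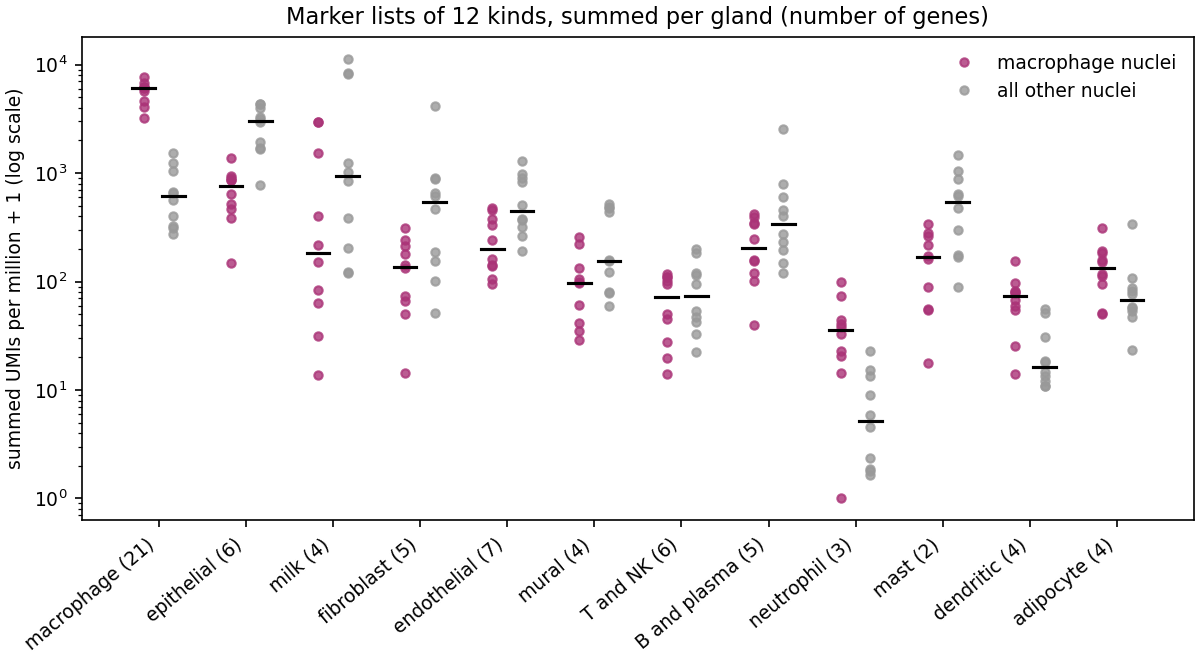
Marker lists summed per gland in the macrophage nuclei and in all other nuclei, with 1 point per gland, a bar at the median, and CPM plus 1 on a log axis; the number of genes in each list stands in parentheses. The macrophage list has medians of 6081 and 612 CPM in the macrophage nuclei and in all other nuclei. The epithelial, milk, fibroblast and endothelial lists are lower in the macrophage nuclei.

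The depth of the data limits the smaller glands. A library held 18962138 to 53165191 UMIs over its barcodes, and the macrophage nuclei of a gland together held 74706 to 5137286. The median macrophage nucleus had 1422 to 2500 UMIs. Mitochondrial transcripts made up a median of 0 to 11.3% of the UMIs of macrophage nuclei and 0.0367 to 0.507% of those of all other nuclei, and the highest of these values belonged to L20 sow 1. Any pair of glands shared 52 to 205 barcodes, at most 1.23% of the smaller gland, and 3 barcodes of macrophage nuclei were shared over all 45 pairs.

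The share of macrophage nuclei was highest at L20 and PI7 and lowest at L0. It was 1.72 and 0.497 for G90, 0.366 and 0.382 for L0, 3.76 and 10.9 for L20, 0.979 and 1.12 for PI2 and 5.81 and 3.96 for PI7, in percent of the nuclei of each gland. Exact 95% binomial intervals, which cover counting error only, were 0.264% to 0.494% for L0 sow 1 and 10.4% to 11.4% for L20 sow 2. The mean was 7.34% ± 5.06 (SD, n = 2) for L20 and 4.88% ± 1.31 for PI7, against 1.11% ± 0.863 for G90, 0.374% ± 0.0117 for L0 and 1.05% ± 0.0973 for PI2. Both glands of L20 and both of PI7 lay above the 6 glands of the other stages. In percentage points the 2 sows of L20 differed from each other more than the 2 sows of any other stage, whereas as a ratio the 2 sows of G90 did. L20 sow 2, the gland with the largest share, also differed from L20 sow 1 in all other nuclei. There its milk protein list, at 120 CPM, was the lowest of the 10 glands, against 852 in L20 sow 1. Its fibroblast list, at 4112 CPM, was the highest, against 608 in L20 sow 1. The part of this difference in the share was not tested.

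Stage accounted for 72.3% of the sum of squares of the share, which an exact permutation test over all ways of pairing the glands did not separate from the spread between sows (one-sided p = 0.134, adjusted p = 0.269 over 2 tests; the smallest possible p was 0.00106). The mean of the 4 lactating glands was 3.86% ± 4.97 (SD) and that of the 6 others 2.35% ± 2.09, a difference of 1.51 percentage points (exact two-sided permutation test over 210 splits, p = 0.610, adjusted p = 0.610). Leaving out an L20 gland left that stage with 1 gland and so with no spread within it. Stage then took 97.6% without sow 1 and 92.0% without sow 2. These values cannot show whether stage exceeds the spread between sows, since the L20 spread was removed. The lactation difference turned to -0.844 percentage points without L20 sow 2. With at least 3 of the 5 markers required, L20 sow 1 fell to 1.04% and L20 sow 2 was at 5.55%, PI7 was at 2.31% and 1.94%, and stage took 58.6% (p = 0.232, adjusted p = 0.463, exact permutation test). With at most 25% mitochondrial UMIs, 321 of the 486 macrophage nuclei of L20 sow 1 were left, its share was 2.63%, and stage took 63.9% (p = 0.157, adjusted p = 0.313, exact permutation test). With every nucleus thinned to 1000 UMIs and shallower nuclei left out, the stage means were 0.245% for L0, 6.54% for L20, 0.750% for PI2 and 4.18% for PI7. Among nuclei with 0 UMIs of the epithelial genes EPCAM, KRT18 and ELF5, the share was 3.18 and 2.04 for G90, 1.11 and 1.18 for L0, 5.9 and 12 for L20, 1.78 and 1.71 for PI2 and 7.54 and 6.88 for PI7, in percent, and stage took 83.7% of its sum of squares (exact permutation test, one-sided p = 0.0328, adjusted p = 0.0656). Both glands of L20 and both of PI7 still lay above the other 6. Whether macrophage nuclei were added or other nuclei lost cannot be told apart from shares.

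**Figure D2:**
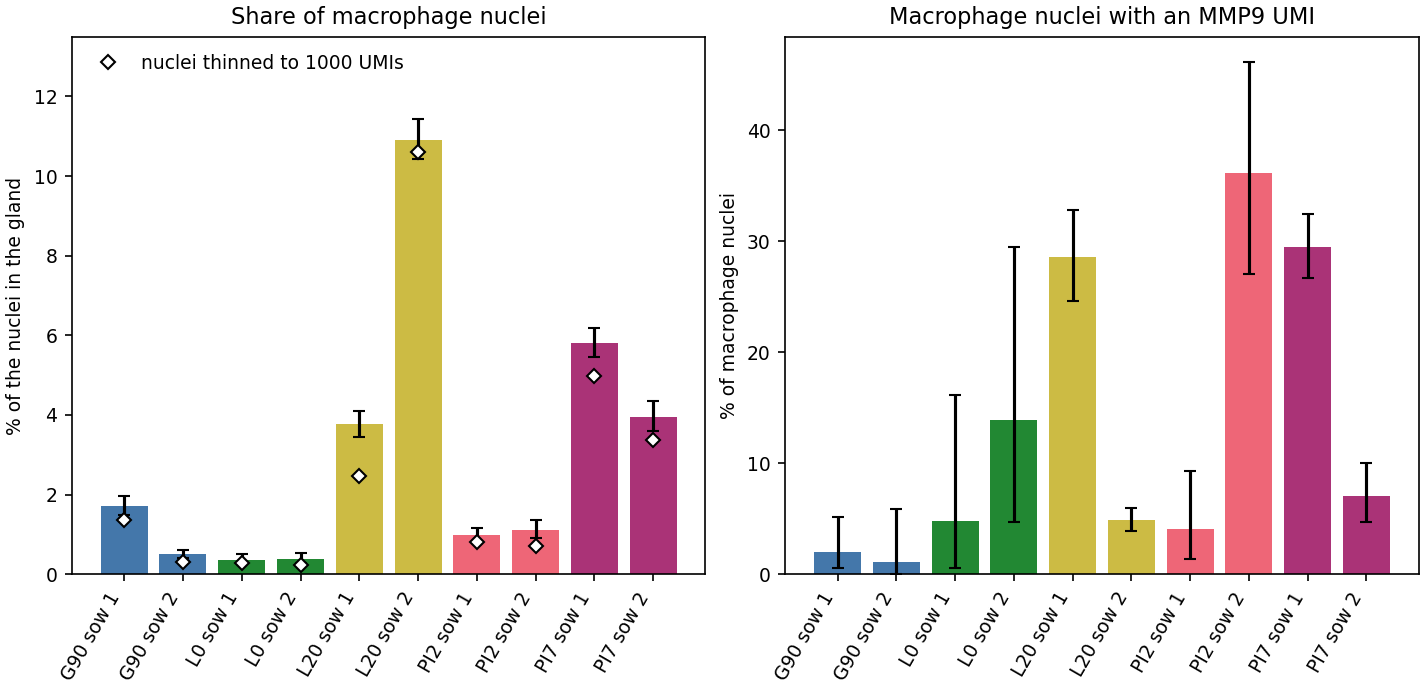
Left, macrophage nuclei in percent of the nuclei of each gland, with exact 95% binomial intervals and, as diamonds, the share after thinning every nucleus to 1000 UMIs. Right, percent of the macrophage nuclei that carry an MMP9 UMI, with exact 95% binomial intervals; L20 sow 1, PI2 sow 2 and PI7 sow 1 lie at 28.6%, 36.2% and 29.5% and the other glands at 13.9% or less.

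Set against another immune population of the same glands, macrophage nuclei were the fewer at G90, L0 and PI2 and the more numerous at L20. Lymphocyte nuclei were counted by a rule of the same form, from at least 2 of a set of T and NK cell genes that included CD3E, CD2, CD247, THEMIS and SKAP1, and 3059 nuclei met it. The number of macrophage nuclei per lymphocyte nucleus was 0.343 and 0.467 for G90, 0.336 and 0.33 for L0, 16.8 and 6.69 for L20, 0.462 and 0.665 for PI2 and 1.22 and 0.715 for PI7. At L20 sow 1 the ratio rested on 29 lymphocyte nuclei and 486 macrophage nuclei. The median UMIs of lymphocyte nuclei were 821 to 1439.5 per gland, below those of the macrophage nuclei, so depth differs between the 2 counts.

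Macrophage nuclei were set beside all other nuclei of the same gland with edgeR's quasi-likelihood test on summed UMIs, with the gland as a block and a call at an adjusted p under 0.05 and over 2-fold. Of 16472 genes tested, 3577 (21.7%) were called, 1275 (7.74%) higher and 2302 (14%) lower in the macrophage nuclei. The rule separated the classes by their counts, so these numbers describe the classes and carry no further evidence. The largest named differences were in TFEC, a transcription factor of the MITF family (log2 difference 4.61 ± 0.38, SE), in C1QA, C1QB and C1QC, the chains of the complement starter C1q (4.56, 4.58 and 4.55), and in NLRP3, the inflammasome sensor (4.50). C1QB was at 435 and 327 for G90, 762 and 415 for L0, 88.2 and 288 for L20, 307 and 271 for PI2 and 190.0 and 379 for PI7 CPM, against 2.58 to 48.2 CPM in all other nuclei. The 2 classes did not overlap for this gene.

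The fixed gene lists differed in how many members were called higher or lower. Over all genes tested, 7.74% were called higher and 14% lower, and the counts below are of called genes. Of 18 lysosomal genes 15 were higher, among them CTSS, a cathepsin that trims peptides for presentation (log2 difference 3.02), and LIPA, the lysosomal lipase (2.69). Of 12 antigen presentation genes 9 were higher, led by SLA-DMB (3.997) and CD86 (3.62), and CD74, the invariant chain, by 2.51. Scavenger receptors gave 9 of 14 higher, with MSR1 at 3.99 and MRC1 at 3.56. Lipid handling gave 13 higher and 1 lower of 19, among them SOAT1, which esterifies cholesterol (2.62), and GPNMB, a lysosomal glycoprotein of lipid-laden macrophages (2.44). The engulfment list was mixed, 4 higher and 6 lower of 16: the receptor kinases AXL (3.01) and MERTK (2.68) were higher, and the adaptor GULP1 (-2.35) was lower. Of 31 receptors for cytokines, chemokines and microbial patterns 22 were higher and 1 was lower, and of 26 secreted cytokines and growth factors 12 were higher and 5 lower, with TGFB1 at 2.59 and IL10 at 2.88. Of 36 transcription factors 12 were higher and 7 lower, with SPI1, which encodes PU.1, at 3.75 and IRF5 at 3.03. Complement gave 5 higher of 9, osteoclast and cell fusion genes 7 of 12, interferon-stimulated genes 5 of 26, and iron and haem genes 6 higher and 1 lower of 17. Matrix genes split 6 and 6 of 18, glucocorticoid-induced genes gave 3 higher and 4 lower of 17, and NF-kappa-B and immediate early genes 2 higher and 4 lower of 29. The last of these lists lay near the shares over all genes.

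Cell cycle genes were also more abundant in the macrophage nuclei, with 16 of 29 called higher and 0 lower. ATAD2, a chromatin factor of dividing cells, was higher by 1.72 and CENPF, a centromere protein of mitosis, by 1.73 on the log2 scale. The list summed to 1631 and 2256 for G90, 1865 and 3654 for L0, 2142 and 1257 for L20, 917 and 2068 for PI2 and 1185 and 874 for PI7 CPM in macrophage nuclei. At G90 the same list stood at 1681 and 2883 CPM in all other nuclei, above the macrophage nuclei of both glands.

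The genes called lower with the largest differences were those of stromal and vascular cells: LOX, which cross-links collagen, APLNR, MMP27 and the chemokine-binding receptors ACKR4 and ACKR1. LOX was at 0.831 to 53.7 CPM in all other nuclei and at 0 to 3.7 CPM in macrophage nuclei, with 0 UMIs in 6 of the 10 glands.

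Against lymphocyte nuclei, 980 of 6077 genes (16.1%) were called, 637 (10.5%) higher and 343 (5.64%) lower in the macrophage nuclei, again between classes that their rules separated. MS4A7, a membrane protein of tissue macrophages, was higher by 5.04 ± 0.38 (log2, SE), followed by BANK1, an adaptor best known from B cells (4.88), TFEC (4.68), the sodium-calcium exchanger SLC8A1 (4.53) and CSF2RB, the shared beta chain of the GM-CSF receptor (4.50). BANK1 stood at 1406 and 1704 for G90, 2194 and 1499 for L0, 164 and 648 for L20, 972 and 951 for PI2 and 636 and 1126 for PI7 CPM in macrophage nuclei, lowest in L20 sow 1. The B and plasma cell list, which leaves BANK1 out, was lower than in all other nuclei in 8 of 10 glands. It was higher in both L0 glands, at 420 against 273 CPM and 348 against 148. All other nuclei keep the B and plasma cells of the gland, so a lower sum is no check on BANK1. Against lymphocyte nuclei the list was higher in both L0 glands, at 420 against 193 CPM and 348 against 68.6. It was also higher in PI2 sow 2, at 155 against 139, and lower in the other glands. The lymphocyte rule took T and NK cell genes only, and the part of B cell transcripts in BANK1 was not tested. The lymphocyte side was led by NLRC3 (-5.00), CD226 (-5.00), KLRK1 (-4.88), CD3D (-4.86) and STAT4 (-4.66). Of the 21 macrophage genes outside the rule, 19 could be tested here and 15 were higher. Lipid handling gave 13 higher of 15, scavenger receptors 7 of 7, lysosomal genes 10 of 15 and complement genes 6 of 7. TGFB1 did not pass this comparison (0.11 ± 0.14, adjusted p = 0.607, edgeR).

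The macrophage nuclei were also split among themselves by MMP9. The share of macrophage nuclei with an MMP9 UMI was 2.03 and 1.08 for G90, 4.76 and 13.9 for L0, 28.6 and 4.84 for L20, 4.1 and 36.2 for PI2 and 29.5 and 7.02 for PI7, in percent. At each of L20, PI2 and PI7 the share was high in 1 sow and low in the other. The sow with the higher share also had the higher neutrophil list in its macrophage nuclei, at 97.6 against 37.2 CPM at L20, 71.9 against 32.1 at PI2 and 39.9 against 22.0 at PI7, and the higher median mitochondrial share, at 11.3% against 0.432%, 3.004% against 0% and 0.646% against 0.110%. Within these 3 glands CSF3R was no higher in the nuclei with MMP9, at 53.3 CPM with against 55 without in L20 sow 1, 56.1 against 82.1 in PI2 sow 2 and 19.6 against 48.7 in PI7 sow 1. CSF3R is 1 of the 3 genes of that list, and S100A8 and MMP8 are not given for the split. The part of neutrophil transcripts and of mitochondrial share in the MMP9 values was not tested. Thinned to 1000 UMIs, the 3 highest glands, L20 sow 1, PI2 sow 2 and PI7 sow 1, kept 22.8%, 27.2% and 20.2%, and the other glands had 0% to 7.69%. Nuclei that held an exclusion gene and none of the other 4 markers, which should lack MMP9, carried an MMP9 UMI in 2.52%, 0.244% and 8.01% in these 3 glands, at median depths of 1589, 2039 and 2282 UMIs against 1560.5, 1512 and 2166 in the macrophage nuclei. MMP9 is one of the rule's genes and these shares were not tested.

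In the 7 glands with at least 5 nuclei of each kind, nuclei with an MMP9 UMI were set beside the MMP9-negative nuclei of the same gland, and the called genes included lipid-handling genes on the higher side and scavenger receptor genes on the lower. Of 5227 genes tested, 193 (3.69%) were called, 120 (2.3%) higher and 73 (1.4%) lower. MMP9 is a gene of the rule, and over all glands 338 of the 589 nuclei with it were members only through it. Nuclei without it needed 2 other markers, so the 2 kinds were selected unequally, and the p-values of the split carry this. The fit with equal entry is given below. Lipid handling gave 7 of 16 higher and 0 lower, with a median log2 difference of 0.51 against -0.05 over all genes tested. Those called were ACP5, SPP1, FABP5, GPNMB, LGALS3, LPL and CD9. The summed level of the list was higher with MMP9 in 5 of the 7 glands and lower in 2, L0 sow 2 and PI2 sow 2. Scavenger receptors gave 3 of 7 lower, with a median of -0.78, namely MRC1, STAB1 and COLEC12, and their summed level was lower with MMP9 in 7 of 7 glands.

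ACP5 encodes the tartrate-resistant acid phosphatase, an enzyme of osteoclasts and of some activated macrophages. It was at 356 CPM with against 39.5 without MMP9 in L20 sow 1, 171 against 26 in L20 sow 2, 5658 against 159 in PI7 sow 1, 1836 against 242 in PI7 sow 2, and 28.1 against 27.4 in PI2 sow 2. In L0 sow 2 and PI2 sow 1, with 5 MMP9-positive nuclei each, it was at 0 in the positive nuclei. With the unequal entry given above, whose selection the p-value carries, the log2 difference was 3.24 ± 0.35 (SE, adjusted p = 3.18e-17, edgeR). Both L20 and both PI7 glands showed it, and PI2 sow 2 did not.

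SPP1, which encodes the secreted matrix protein osteopontin, was likewise higher with MMP9 in both L20 and both PI7 glands. Its level was 13593 CPM with against 2740.3 without MMP9 in L20 sow 1, 3735 against 844 in L20 sow 2, 21105 against 1375 in PI7 sow 1 and 13606 against 1523 in PI7 sow 2. Unlike ACP5 it was also higher in PI2 sow 1, at 5709 against 147 from 44 and 31 UMIs. In PI2 sow 2 it was lower with MMP9, at 1080.5 against 1770.2. The log2 difference over the glands was 2.74 ± 0.48 (adjusted p = 2.28e-06, edgeR), where the p-value again carries the unequal entry. Genes that were higher in 7 of 7 glands were ANKH, a pyrophosphate and citrate exporter (2.07 ± 0.27), ATP6V1B2, a subunit of the proton pump (1.75 ± 0.26), and PSEN2, a catalytic subunit of gamma-secretase (1.54 ± 0.30). Also among the 5 largest with the same sign in every gland were MYO1D, a class I myosin, and HSPA5, the chaperone BiP, each at 1.24.

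MRC1 ran the other way. It was at 36.5 CPM with against 261 without MMP9 in L20 sow 1, 295 against 1542 in L20 sow 2, 14 against 91.2 in PI2 sow 2, 64.4 against 267 in PI7 sow 1 and 0 against 299.9 in PI7 sow 2. It was lower with MMP9 in every one of the 7 glands (log2 difference -2.58 ± 0.30, adjusted p = 9.35e-15, edgeR). This p-value too is from the fit with unequal entry. STAB1, the scavenger receptor stabilin-1, differed by -2.002, the clotting factor gene F13A1 by -1.61, COLEC12, a scavenger receptor with a collagen domain, by -1.50, MAF, a transcription factor of resident macrophages, by -1.29, C1QB by -1.15 and MERTK by -1.004. STAB1, C1QB and MERTK were lower with MMP9 in 7 of 7 glands, F13A1 and MAF in 6 and COLEC12 in 5. MAF, C1QB and MERTK lost the call where at least 2 markers other than MMP9 were required of both kinds. F13A1 was higher in PI2 sow 1, whose 5 MMP9-positive nuclei held 3244 CPM against 337, and COLEC12 was higher in L0 sow 2, at 1074 against 958, and in PI2 sow 2, at 631 against 484. Of the 21 macrophage genes outside the rule 8 were lower and 0 higher, a count that the unequal entry of the nuclei, given below, bears on. Among the 5 largest differences with the same sign in every gland were also PDE7B, a cyclic AMP phosphodiesterase, ROBO2, a guidance receptor, and CLEC2B, a lectin, at -1.65, -1.64 and -1.48.

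**Figure D3:**
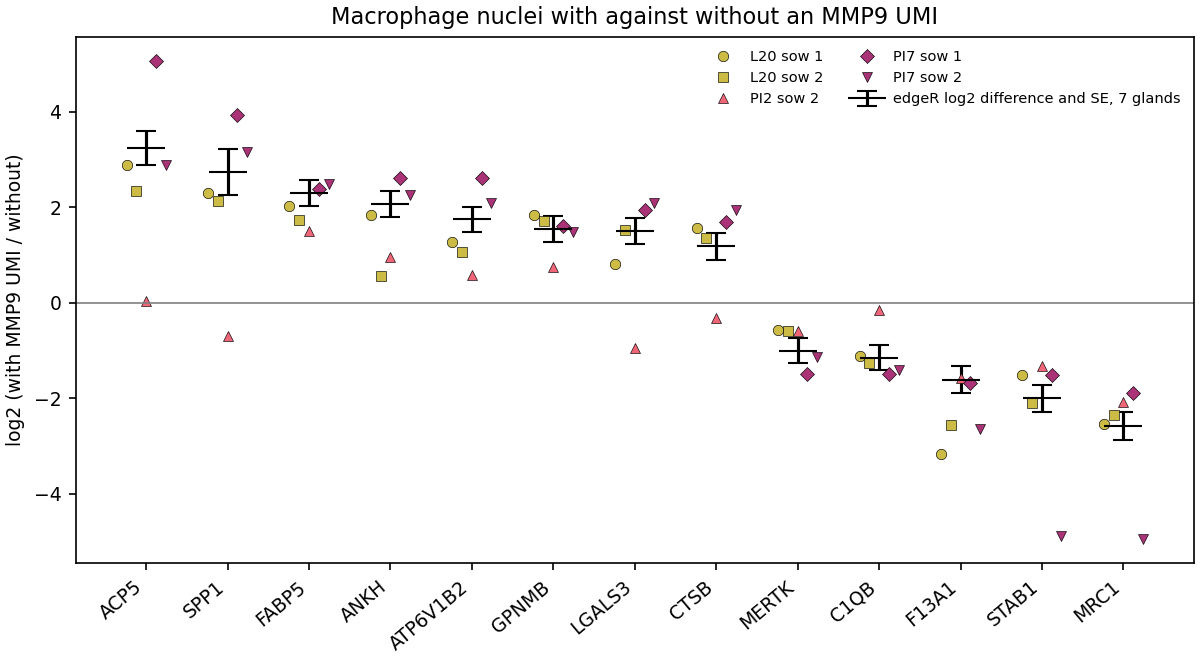
Log2 ratio of the level in macrophage nuclei with an MMP9 UMI to that in macrophage nuclei without one, computed with 10 CPM added to both, for 5 of the 7 glands (the other 2 hold 5 positive nuclei each) and, as bars with SE, the edgeR log2 difference over the 7 glands. ACP5 and SPP1 lie above 0 in both L20 and both PI7 glands and near or below it in PI2 sow 2, and MRC1 and STAB1 lie below 0 in all 5.

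The promoters of ACP5 and MRC1, the fixed-list genes of largest difference in each direction of the split, are shown as the 250 bases upstream of the annotated gene start (RefSeq, Sscrofa11.1). ACP5 lies at chr2:70209856-70210105 on the minus strand and MRC1 at chr10:44107676-44107925 on the plus strand, each printed 5′ to 3′ in the direction of the gene. Capitals mark matches, on either strand, to GAGGAA, the core that PU.1 binds, and to CATGTG, the core of the sites of MITF and its relatives.
ACP5: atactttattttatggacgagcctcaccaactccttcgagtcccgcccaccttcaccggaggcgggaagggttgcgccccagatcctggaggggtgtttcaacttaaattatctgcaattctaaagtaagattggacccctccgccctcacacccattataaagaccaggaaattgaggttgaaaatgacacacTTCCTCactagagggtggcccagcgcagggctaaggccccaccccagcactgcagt
MRC1: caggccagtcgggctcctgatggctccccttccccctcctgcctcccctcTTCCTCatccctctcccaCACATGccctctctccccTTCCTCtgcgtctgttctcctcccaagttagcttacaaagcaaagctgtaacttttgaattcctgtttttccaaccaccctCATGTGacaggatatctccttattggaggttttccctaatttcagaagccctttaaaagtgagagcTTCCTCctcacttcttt
ACP5 held 1 match to GAGGAA and 0 to CATGTG, and MRC1 held 3 and 2. The promoters of ATP6V0D2 and GPNMB, searched in the same way, held 0 matches to both. GAGGAA occurred in 22.0% and CATGTG in 8.76% of the 20638 promoters of this length. No match was found in either to TGANTCA, the AP-1 motif (5.47% of promoters), or to CACGTG (6.17%). The annotated start may differ from the start used in these cells.

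SLC9B2, TREH and CSF1, given next, were chosen after their values were seen. SLC9B2, a sodium-proton exchanger known from osteoclasts, had the smallest p of all (log2 difference 3.92 ± 0.34), at 2272 CPM with against 65.4 without MMP9 in PI7 sow 1, 2974 against 63.9 in PI7 sow 2, 662 against 71.9 in L20 sow 1, 3374 against 61.8 in PI2 sow 1 and 134 against 94.7 in L20 sow 2. In L0 sow 2 and PI2 sow 2 the nuclei with MMP9 held 0 UMIs of it and those without 1 and 2. TREH, which encodes trehalase, differed by 3.17 and CSF1, the growth factor that CSF1R binds, by 2.61. In L20 sow 1 CSF1 was at 233 CPM with against 67.7 without MMP9. The proton pump genes were a group outside the fixed lists, put together after values of the split were seen. Of 11 such genes 7 were called higher and 10 had a positive difference (ATP6V1B2, named above, is 1 of them). Because the group was chosen on these values, its count carries no further evidence. Over all 5227 genes tested, 2.3% were called higher and 1.4% lower. Whether 1 or 2 calls in a list exceed these shares was not tested. For the remaining fixed lists the counts were as follows: lysosomal genes 2 of 16 higher (CTSB among them), antigen presentation 0 of 9, complement 2 of 6 lower (C1QA and C1QB), interferon-stimulated genes 0 of 13, cell cycle 0 of 14, matrix genes 0 of 11, cytokines 0 of 7, osteoclast genes 1 of 4 (ACP5), iron and haem 1 of 11 (FTL), engulfment 1 higher (ITGAV) and 1 lower (MERTK) of 9, receptors 1 higher (CXCR4) and 2 lower (IL10RA and TLR3) of 20, transcription factors 1 higher (BHLHE40) and 2 lower (MAF and MEF2C) of 26, immediate early genes 1 of 17 higher (ATF3) and glucocorticoid-induced genes 1 of 15 lower (FKBP5).

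Nuclei with an MMP9 UMI were deeper than those without in every gland, with medians of 3129 against 2456.5 UMIs in L20 sow 2 for example. They also needed only 1 further marker to enter the rule, while the others needed 2, and 338 of the 589 entered only through MMP9, 177 of them in PI7 sow 1 and 86 in L20 sow 1. Where at least 2 markers other than MMP9 were required of both kinds, 143 genes were called and 87 of the 190 earlier calls tested there were among them. In this setting ACP5 was at 2.70, SPP1 at 1.87, GPNMB at 1.89, MRC1 at -2.18 and STAB1 at -1.62, all called. Of the 10 genes named above for 1 sign in every gland, PSEN2, MYO1D, HSPA5 and CLEC2B lost the call, as did MAF, C1QA, C1QB and MERTK. Lipid handling then had 8 of 18 higher and 0 lower and scavenger receptors 3 of 7 lower, whereas complement had 0 of 7 called and the macrophage genes outside the rule 3 of 21 lower (MRC1, F13A1 and STAB1) in place of 8. In that fit the median log2 difference was 0.875 for lipid handling and -0.748 for scavenger receptors, against -0.0260 over all genes tested. Osteoclast genes had 3 of 6 higher there (ATP6V0D2, ACP5 and ITGB3, list median 1.60). Lysosomal genes had 4 of 18 higher (CTSL, CTSB, CTSS and CTSD, list median 0.856). Without equal entry, the summed level of both lists was higher with MMP9 in 6 of the 7 glands and lower in 1. Without PI7 sow 1, which gave 286 of the 589 positive nuclei, 73 genes were called, 70 of them shared, and without PI2 sow 2 there were 307. Without the nuclei above the 95th percentile of UMIs there were 106. Without the gland as a block 4 genes were called.

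The stage comparisons of macrophage genes used the UMIs summed over the macrophage nuclei of each gland, 36 nuclei in the smallest and 1673 in the largest, and 1 edgeR fit over the 10 glands. Over 8588 genes, 17 (0.198%) differed by stage at an adjusted p under 0.05, and 12 of these have a symbol. Among them were ACP5 and ATP6V0D2, which were highest in PI7 sow 1, LGALS3, which was high in both glands of L20 and PI7, the matrix gene FN1, the immediate early gene FOS, and ARHGAP20, which was lowest at L20. The others were BTC and a set of genes, PKP4, ARL15, MCOLN2, PAPLN and ANGPTL4, that were higher in all other nuclei than in macrophage nuclei in at least 8 of 10 glands. Adjusted p ran from 0.0390 to 0.0469, so all 17 lay close to the threshold, and none of the 17 was called without the 250 macrophage nuclei that exceeded the 95th percentile of UMIs of their gland. With at least 2 markers other than MMP9 required, ATP6V0D2, ARHGAP20, ARL15, FOS and FN1 lost the call (adjusted p of 0.0653 to 0.151) and the other 7 with a symbol kept it. The study's own quality filter left out nuclei above 25% mitochondrial transcripts, and the rule here did not apply it. That limit removes 165 of the 486 macrophage nuclei of L20 sow 1. With at most 25% mitochondrial UMIs, 2 genes without a symbol were called and all 12 genes with one lost the call (adjusted p of 0.0505 to 0.101, edgeR). Leaving out a gland left its stage with 1 gland. The calls were fewer without either L0 gland or either PI7 gland, and more without either PI2 gland or either L20 gland.

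ACP5 was at 26.5 and 34.2 for G90, 105 and 13.4 for L0, 145 and 35 for L20, 73.3 and 27.6 for PI2 and 2397 and 410.2 for PI7 CPM in macrophage nuclei (adjusted p = 0.0425, edgeR, by stage). Both PI7 glands lay above the 8 others. In PI7 sow 1, 6058 of the 6306 UMIs were in nuclei with an MMP9 UMI. In the nuclei without one ACP5 was at 159 and 242 CPM at PI7 and at 83.7 or less elsewhere. With at least 2 markers other than MMP9 required, the PI7 glands were at 921 and 258 CPM, the others at 105 or less, and the call remained (adjusted p = 0.0390, edgeR). In all other nuclei it was likewise highest at PI7, at 321 and 73.9 CPM against 17.1 or less elsewhere.

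ATP6V0D2 encodes a proton pump subunit that osteoclasts and some macrophages use, and which is needed for osteoclast fusion. It was at 4.08 and 0 for G90, 0 in both glands for L0, 74.2 and 51.8 for L20, 9.17 and 5.53 for PI2 and 514 and 99 for PI7 CPM (adjusted p = 0.0390, edgeR, by stage). The 4 glands of L20 and PI7 lay above the 6 others, which held 0 to 2 UMIs each. With at least 2 markers other than MMP9 required, it was at 53.1 and 48.9 CPM for L20 and 169 and 31.2 for PI7 and was not called (adjusted p = 0.151). SIGLEC15, a fusion receptor of osteoclasts that was not called (adjusted p = 0.166), was at 107 and 49.5 CPM at PI7 and at 17.8 or less in the other glands.

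LGALS3 encodes galectin-3, a lectin that macrophages release and that binds damaged lysosomes. It was at 8.16 and 24.4 for G90, 0 and 26.8 for L0, 476 and 439 for L20, 243 and 27.6 for PI2 and 407 and 369 for PI7 CPM (adjusted p = 0.0425, edgeR, by stage). All 4 glands of L20 and PI7 and PI2 sow 1 lay above the rest, and PI2 sow 2 lay with the earlier stages. FN1, the matrix protein fibronectin, was at 16.3 and 0 for G90, 26.3 and 0 for L0, 2517 and 387 for L20, 151 and 857 for PI2 and 204 and 349.7 for PI7 CPM (adjusted p = 0.0469), with 0 to 8 UMIs per gland before L20. SPP1, at 663 and 498 for G90, 39.4 and 0 for L0, 6370.4 and 1025 for L20, 344 and 1498 for PI2 and 9404 and 2796 for PI7 CPM, was not called (adjusted p = 0.114). It too was lowest at L0, and its 2 highest glands were L20 sow 1 and PI7 sow 1.

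FOS encodes a subunit of AP-1 that is induced within minutes of a stimulus. Its level was 579.7 and 386 for G90, 0 and 13.4 for L0, 391 and 251 for L20, 142 and 205 for PI2 and 423 and 344 for PI7 CPM, and the L0 values rest on 0 and 1 UMI. The ratio of the L20 to the L0 level over pooled glands was 41.4, with an exact counting interval of 7.43 to 1638 that leaves out the spread between sows (L20 against L0, adjusted p = 0.0352, edgeR). In all other nuclei FOS was likewise lowest at L0, at 19.8 and 16.1 CPM, against 43.5 to 876 elsewhere. SGK1, a kinase induced by glucocorticoids, had the same shape at 347 and 327 for G90, 26.3 and 13.4 for L0, 274 and 163 for L20, 188 and 265 for PI2 and 306 and 285 for PI7 CPM and missed the threshold (L20 against L0, log2 difference 3.77 ± 0.70, adjusted p = 0.0839).

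ARHGAP20, a GTPase-activating protein, was a gene of the macrophage nuclei that was low at L20. It was at 486 and 171 for G90, 459.8 and 428 for L0, 25.3 and 26.5 for L20, 215 and 149 for PI2 and 165 and 118 for PI7 CPM, so both L20 glands lay below the 8 others, and it differed between L20 and L0 by -3.83 ± 0.55 (log2, adjusted p = 0.0352, edgeR). MAP2, a microtubule-associated protein, also was lower at L20 than at L0, by -3.35 ± 0.53 (adjusted p = 0.0352), at 24.4 and 40.9 against 447 and 348 CPM. FOS, ARHGAP20, MAP2 and 1 gene without a symbol were the only calls of L20 against L0 (4 of 8588, 0.0466%). There were 0 calls without the 250 nuclei of most UMIs, with at least 2 markers other than MMP9 required, without L0 sow 1, without L0 sow 2 and without PI7 sow 2. With the replicate number as a block 1 call was left, and with at most 25% mitochondrial UMIs also 1, ARHGAP20. Without L20 sow 2 there were 59, without L20 sow 1 9, without G90 sow 2 20, and without PI2 sow 1 or sow 2 21 and 22.

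**Figure D4:**
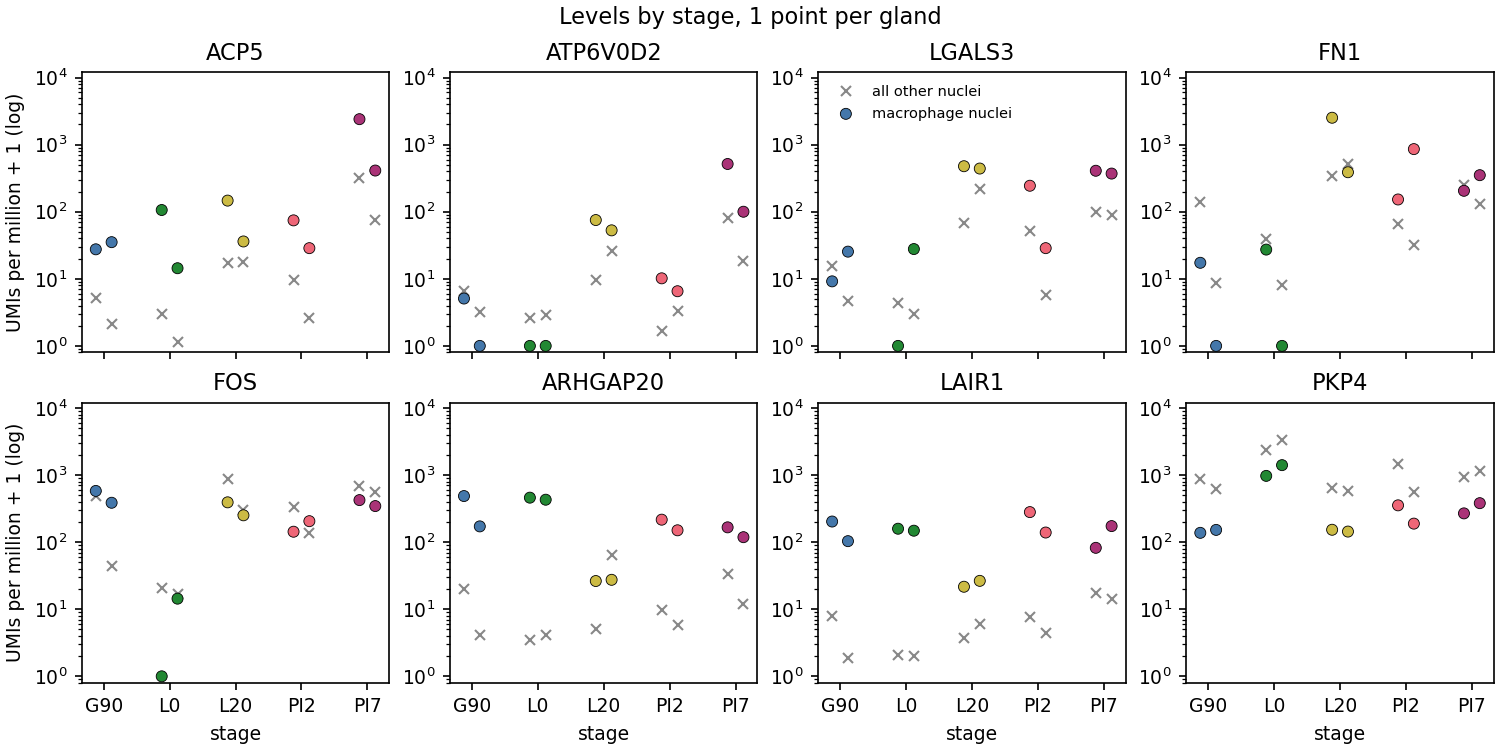
Levels of 8 genes by stage in CPM plus 1 on a log axis, with 1 filled point per gland for the macrophage nuclei and 1 cross for all other nuclei. ACP5 and ATP6V0D2 peak at PI7, FOS is lowest at L0, ARHGAP20 and LAIR1 are lowest at L20, and PKP4 is higher in all other nuclei of every gland.

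PKP4, plakophilin-4 of cell junctions, moved alike in both classes of nuclei. In macrophage nuclei it was at 137 and 151 for G90, 972 and 1406 for L0, 152 and 143 for L20, 353 and 188 for PI2 and 268 and 380.5 for PI7 CPM (adjusted p = 0.0425, edgeR, by stage), and in all other nuclei it was at 885 and 621 for G90, 2343 and 3296 for L0, 648 and 572 for L20, 1465 and 558 for PI2 and 927 and 1141 for PI7 CPM. L0 was highest in both, and the part that transcripts of other cells had in this result was not tested. ARL15, a small GTPase, was highest at L0 in both as well, at 2181 and 1633 CPM in macrophage nuclei and 6379 and 5609 in all other nuclei. MCOLN2, an endolysosomal channel, and PAPLN, papilin of the matrix, followed the same order in both classes too: MCOLN2 was at 147 to 288 CPM at G90 and L0 and at 45.8 or less later, and PAPLN at 112 and 337 CPM at G90 and at 93.7 or less later. ANGPTL4, a lipoprotein lipase inhibitor, was at 185 and 98.5 CPM at L20 against 44.2 or less elsewhere in macrophage nuclei, and at 416 and 117 in all other nuclei at L20. BTC, the growth factor betacellulin, was at 50.7 and 263 CPM at L20 and at 27.5 or less elsewhere, with 0 UMIs in both PI2 glands.

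The other contrasts between stages gave no call at an adjusted p under 0.05 and over 2-fold in edgeR (0 of 8588, 0%). L0 against G90 had 576 genes at an unadjusted p under 0.05 and 18 calls with DESeq2, PI2 against L20 had 462 and 15, PI7 against PI2 had 276 and 3, and involution (PI2 and PI7) against lactation (L0 and L20) had 570 and 12. The genes of smallest p between PI2 and L20 were LAIR1, an inhibitory receptor for collagen, ARHGAP20 and the metalloprotease ADAM28 on the higher side. LAIR1 was at 202 and 103 for G90, 158 and 147 for L0, 20.6 and 25.5 for L20, 279.6 and 138 for PI2 and 81.3 and 173 for PI7 CPM (PI2 against L20, log2 difference 2.88, adjusted p = 0.304) and ADAM28 at 343 and 327 for G90, 276 and 241 for L0, 68.5 and 136 for L20, 513 and 426 for PI2 and 327 and 302 for PI7 CPM (1.95, adjusted p = 0.424). Both L20 glands were the lowest of the 10 for both genes. On the lower side were BTC, PLIN2, the coat protein of lipid droplets (-2.20, adjusted p = 0.405), and CPSF6 (-3.32, adjusted p = 0.405). CPSF6, a cleavage factor of mRNA ends, was at 186 and 181 for G90, 210.2 and 53.5 for L0, 584 and 961 for L20, 165 and 22.1 for PI2 and 832 and 1013 for PI7 CPM. In the reference its neighbour is LYZ, lysozyme, for which the gene table used here had no symbol, and whether lysozyme reads enter the CPSF6 count was not tested.

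Between PI7 and PI2 the smallest p belonged to ATP6V0D2 (log2 difference 5.39 ± 1.01), ACP5 (4.84 ± 1.01) and CPSF6 (3.31) on the higher side and to ARHGAP4, CTBP1 and the casein gene CSN2 on the lower (adjusted p of 0.822 or above, edgeR). ARHGAP4 was at 160.4 and 155 CPM at PI2 and 27.4 and 38.5 at PI7, and CTBP1, a corepressor, at 394 and 205 against 66.1 and 125. For involution against lactation NUAK1, a stress kinase, SGK1 and BCAR3, an adhesion adaptor, were nearest the threshold on the involution side (1.71 ± 0.39, 1.81 ± 0.43 and 1.29 ± 0.31) and PLIN2, ARL15 and GREB1L on the lactation side, all at an adjusted p of 0.651 or above. PLIN2 stood at 131 and 137 for G90, 328 and 201 for L0, 261 and 419 for L20, 87.1 and 88.5 for PI2 and 113 and 181 for PI7 CPM. From L0 to G90 the nearest were PKP4 (2.98 ± 0.48, adjusted p = 0.0656), TOPAZ1 and the transcription factor FOXP2 on the L0 side and FOS (adjusted p = 0.0519), SGK1 (-4.15 ± 0.70, adjusted p = 0.0789) and the nucleoporin NUP188 on the G90 side. TOPAZ1 had 0 UMIs in both G90 glands and NUP188 in both L0 glands. From L20 to L0 the nearest uncalled genes were LMNA, which encodes the nuclear lamins A and C (0 UMIs in both L0 glands, 169 and 112 CPM at L20, adjusted p = 0.0719), SGK1, VIM, the intermediate filament vimentin (4.20 ± 0.81, adjusted p = 0.0866), and, lower at L20, PKP4, ZDBF2 and NEBL.

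Lipid-handling genes ranged widely across the glands. The 19 genes summed to 2604 and 2559 for G90, 2890.1 and 2489.8 for L0, 9310.2 and 7215 for L20, 4080.0 and 3129.5 for PI2 and 16537 and 8826 for PI7 CPM in macrophage nuclei, so both glands of L20 and both of PI7 lay above the 6 others, and to 774 to 4767 CPM in all other nuclei, where the same 4 glands were likewise the highest. SPP1 carried much of this sum, with 6370.4 CPM in L20 sow 1 and 9404 in PI7 sow 1. Without SPP1 the other 18 genes summed to 1941 and 2060.5 for G90, 2851 and 2489.8 for L0, 2939.8 and 6190.2 for L20, 3736 and 1631 for PI2 and 7133 and 6029 for PI7 CPM, so L20 sow 2 and both PI7 glands still lay above the rest, while L20 sow 1 lay below PI2 sow 1. Of the 18 tested, 17 were higher at L20 than at L0 (median log2 difference 1.13 against 0.20 over all genes tested), 3 were higher at PI2 than at L20 (-1.21 against -0.04), and 18 were higher at PI7 than at PI2 (0.85 against 0.01). None was called between adjacent stages, and ACP5 and LGALS3 were called by stage. TREM2, a lipid receptor that marks lipid-laden macrophages, was at 2.04 and 4.88 for G90, 13.1 and 0 for L0, 23.5 and 23 for L20, 36.7 and 33.2 for PI2 and 60.4 and 63.8 for PI7 CPM, with both involution stages above the others (adjusted p = 0.272, by stage). APOE, the apolipoprotein of lipid export, was at 802 and 1058 CPM at PI7 and at 399 or less elsewhere (adjusted p = 0.206).

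Lysosomal genes summed to 2909 and 3599 for G90, 4874 and 2717 for L0, 6919.5 and 4589.8 for L20, 4566 and 4959.7 for PI2 and 7712 and 8403 for PI7 CPM. Both PI7 glands were the highest. CTSD, the aspartic protease cathepsin D, was at 120.4 and 308 for G90, 644 and 107 for L0, 2840.3 and 687 for L20, 637 and 1178 for PI2 and 2507 and 2550.0 for PI7 CPM (adjusted p = 0.342, by stage) and was above 2500 CPM in L20 sow 1 and both PI7 glands. With at most 25% mitochondrial UMIs L20 sow 1 was at 2226 CPM of CTSD. Osteoclast and cell fusion genes had 10 of 10 tested higher at PI7 than at PI2, with a median of 1.35, of which 0 were called. Their sum in PI7 sow 1 was 4875 CPM over all macrophage nuclei, 10299 in those with MMP9 and 1154 in those without. In the nuclei without MMP9 the sums were 1154 and 1504 CPM at PI7 and 1031 and 484 at PI2, so both PI7 glands lay above both PI2 glands there too. PI7 was not the highest stage in these nuclei, as L20 sow 2 was at 1738 CPM.

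Antigen presentation genes summed to 6125 and 3393 for G90, 5005 and 4779 for L0, 2611 and 2067 for L20, 3264 and 5618 for PI2 and 4205 and 3991 for PI7 CPM, lowest at L20 in both glands. Of the 11 tested, 2 were higher at L20 than at L0 (median -0.94) and 11 were higher at PI2 than at L20 (median 1.33 against -0.04 over all genes), with 0 called. CIITA, the regulator that switches on class II genes, was at 496 and 239 for G90, 158 and 348 for L0, 64.8 and 75.1 for L20, 293 and 409 for PI2 and 155 and 310.1 for PI7 CPM (PI2 against L20, log2 difference 2.07, adjusted p = 0.648). Its 2 lowest glands were those of L20. Scavenger receptors summed to 3058 and 2798 for G90, 3731 and 3039 for L0, 1304 and 4507 for L20, 3470.3 and 1537 for PI2 and 1506 and 2637 for PI7 CPM, and the sows of 1 stage differed by up to 4507 against 1304 CPM at L20.

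Interferon-stimulated genes were set apart by 1 gland. They summed to 1068 and 13998 for G90, 1406 and 829.9 for L0, 1205 and 1953 for L20, 1334 and 4351 for PI2 and 1318 and 3188 for PI7 CPM in macrophage nuclei and to 611 and 8913 for G90, 1182 and 811 for L0, 1467 and 1358 for L20, 789 and 3280.3 for PI2 and 1069 and 1795 for PI7 CPM in all other nuclei, so G90 sow 2 was the highest in both. All 24 tested genes had a lower fitted level at L0 than at G90 (median -3.03 against -0.15 over all genes), with 0 called. MX2, an antiviral GTPase, was at 38.8 and 1436 CPM in the 2 G90 glands, and RSAD2, which encodes viperin, at 6.12 and 571. Involution against lactation had 24 of 24 higher (median 0.87 against 0.07), again with 0 called. The involution glands did not all share this. The sums of PI2 sow 1 and PI7 sow 1, 1334 and 1318 CPM, lay below those of L0 sow 1 and L20 sow 2, 1406 and 1953. Sow 2 had the higher sum at both involution stages.

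Cell cycle genes had 1 of 22 higher in involution than in lactation (median -1.17 against 0.07), with 0 called. CENPF was at 141 and 249 for G90, 118 and 268 for L0, 144 and 40.5 for L20, 36.7 and 138 for PI2 and 50.9 and 23.1 for PI7 CPM (involution against lactation, adjusted p = 0.718). Immediate early genes were higher at L20 than at L0 for 16 of 22, of which FOS was called, and higher at L0 than at G90 for 4. The remaining lists, of engulfment, complement, cytokine, receptor, matrix, iron and haem, glucocorticoid-induced and transcription factor genes, had 0 calls in any contrast between stages, apart from FN1 of the matrix list by stage.

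**Figure D5:**
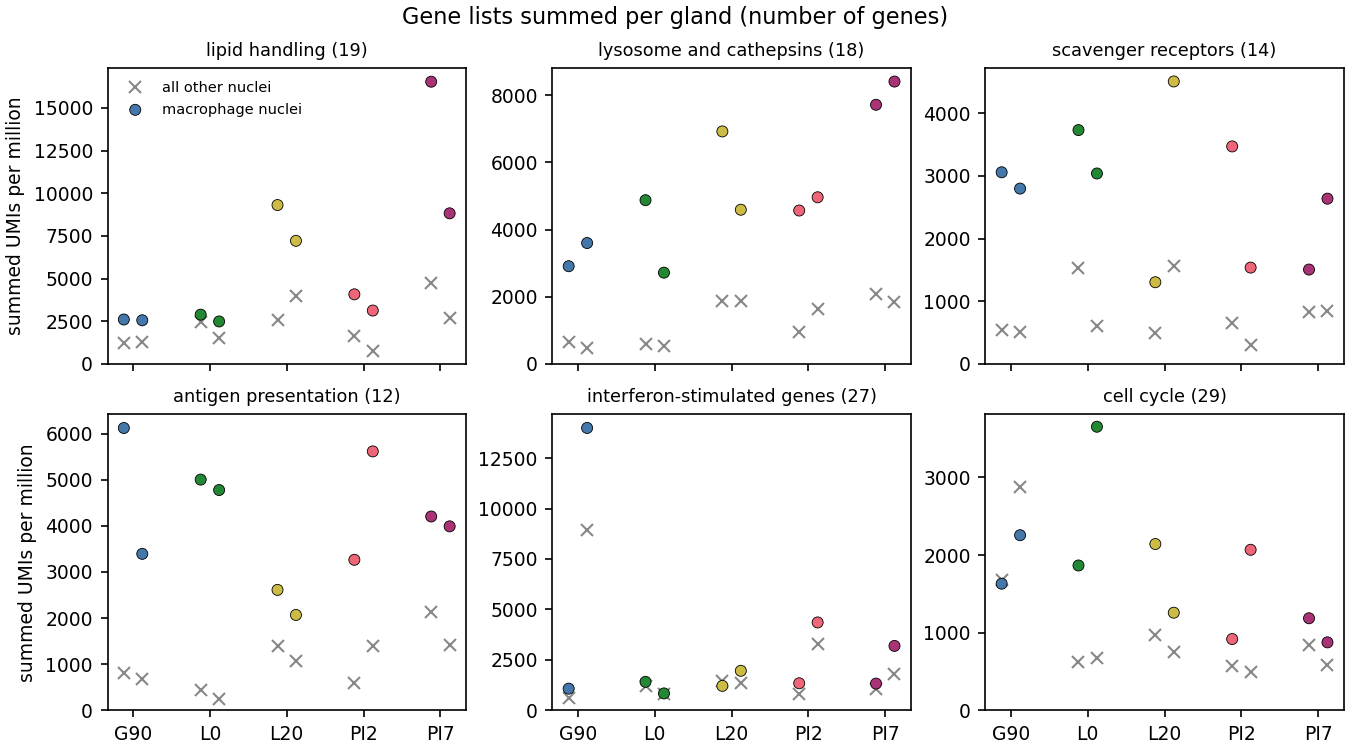
Gene lists, 6 in all, summed per gland, in CPM, against stage; filled points are macrophage nuclei and crosses all other nuclei, and the number of genes is given above each panel. Lipid handling, SPP1 included, is highest in PI7 sow 1 and lies above the other stages in all 4 glands of L20 and PI7, antigen presentation lowest at L20, and the interferon list peaks in G90 sow 2 in both classes of nuclei.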

How the data were processed

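Nuclei were isolated from frozen mammary gland and libraries were made with the GEXSCOPE single-nucleus kit. Per the labels and methods, reads were aligned to Sscrofa11.1 with CeleScope, and the authors deposited, for each gland, a matrix of raw UMI counts per gene and called barcode. Of 28711 genes, 15457 have a symbol in the files and 639 more were named from reference gene annotation. The members, the gene lists and the tests were chosen with earlier results of these data known.

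Each class of nuclei was reduced to 1 column of summed UMIs per gland, since nuclei are not replicates. Comparisons used edgeR 4.0.16 (R 4.3.3; TMM, filterByExpr, quasi-likelihood F test, Benjamini-Hochberg adjustment), leaving out the 11 genes of the rule. Fits across stages held stage alone; fits between classes held the gland as a block and needed at least 5 nuclei of each class. Genes were called at an adjusted p under 0.05 and over 2-fold, or by the F test over stages at an adjusted p under 0.05. Shares were tested by exact permutation over glands (scipy 1.17.1). Levels are CPM of the class, without TMM. Named genes were the rule's genes, members of the fixed lists, and in each comparison the 5 called genes of largest difference per direction that did not overlap between groups or kept their sign in every gland, or the 3 of smallest p where fewer than 5 were called. The scripts were tested on simulated data. Alternatives were DESeq2 1.42.0, no low-count filter, a replicate block, only the stages compared, a stricter marker and depth limit, for the shares stricter gene and mitochondrial limits, and leaving out each gland. Another 3, without nuclei marked by GP91-PHOX and MMP9 alone, with at least 2 markers other than MMP9, and at most 25% mitochondrial UMIs in gene comparisons, were chosen after the counts were seen. The 25% limit is the study's own quality filter, which the main fits did not apply. Spatial and milk cell files were not used here, and some genes of the lists are not reported here by name.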

Additional observations from a re-analysis of the deposited data

Results flagged for a closer look

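GREB1L, a cofactor of retinoic acid signalling, was at 525 CPM in the macrophage nuclei of L0 sow 1, far from the other 3 lactating glands at 134, 93.9 and 67.2 CPM, and in that gland it stood at 1370.4 CPM in all other nuclei. It was 1 of 16 groups of glands tested in this way, and chance alone sets off about 1 group in 20.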

How the results depend on the processing

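Counts of called genes between stages were few and moved with the processing. With DESeq2 they were 18 (L0 against G90), 88 (L20 against L0), 15 (PI2 against L20), 3 (PI7 against PI2), 12 (involution against lactation) and 162 (by stage), and with no filter on low counts 54, 165, 43, 21, 44 and 358 in the same order. Fitting only the stages compared gave 23 for L0 against G90 and 9 for L20 against L0. Replicate numbers do not pair the sows, as differences between numbered sows correlated at -0.289 to 0.207 over pairs of stages, and with the number as a replicate block L20 against L0 had 1 call and the stage test 14. L0 against G90 had 2 calls with at least 3 markers and 2 with milk protein genes left out. L20 against L0 had 0, and the stage test 0, without nuclei above the 95th percentile of UMIs. With at least 50 nuclei per gland the stage test had 1 call, and contrasts with L0 and with lactation gave no value because both L0 glands dropped out. With at least 2 markers other than MMP9, L20 against L0 had 0 calls and PI2 against L20 had 1. With at most 25% mitochondrial UMIs L20 against L0 had 1 call and the stage test 2. Macrophage against lymphocyte nuclei had 2088 calls with no filter, and the MMP9 split 4 with no gland block and 106 without the deepest nuclei. The cause of these moves was not tested.

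Leaving out each gland in turn gave 0 to 8 calls for L0 against G90, 0 to 59 for L20 against L0, 0 to 2 for PI2 against L20, 0 in every case for PI7 against PI2, 1 to 105 by stage, 0 to 4 for involution against lactation, 3467 to 3745 against all other nuclei, 903 to 1107 against lymphocyte nuclei and 73 to 307 for the MMP9 split. The share by stage took 70.1% to 97.6% and the lactation difference -0.844 to 2.67 percentage points, reversed without L20 sow 2. The log2 difference of CSN2 in PI7 against PI2, a gene with 41 UMIs in PI2 sow 2 and 0 to 2 in the other glands of these stages, ran from -9.65 to 2.59 and was positive without PI2 sow 2. Over the settings other than leaving out a gland, named genes that were called stayed called in 303 values and lost the call in 86, and those that were not called stayed so in 255 and became called in 53. With 2 sows per stage and 36 and 42 macrophage nuclei in the L0 glands, differences at L0 rest on few UMIs.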
